A study of Rattus norvegicus with 16 samples.

Results

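Interferon-stimulated genes are the genes that cells switch on when an interferon reaches its receptor. They were followed across 16 libraries of messenger RNA from the tibialis anterior, a muscle at the front of the shin, of Wistar-Imamichi rats. A list of 39 gene symbols defined them: signalling proteins and their feedback inhibitors, sensors of foreign nucleic acid, and antiviral effectors. The deposited table of 31141 genes held 38 of the 39, and 31 of these passed the filter on low values (at least 1 FPKM in at least 4 libraries) and were tested. FPKM is a fragment count divided by gene length and by library size, here as scaled between libraries by the authors. There were 6 libraries from Dmd-mutant rats fed MCTKD (DMD_KD), 6 from Dmd-mutant rats fed a normal diet, ND (DMD_ND), and 4 from wild-type rats fed ND (WT_ND). The labels do not spell MCTKD out; MCT usually means medium-chain triglyceride and KD ketogenic diet. All groups share the strain and the muscle, and all rats were on their diet from weaning until 9 months of age. The labels give the mutant genotype as Dmd, the dystrophin gene, without naming an allele, and do not say whether each library was made from a separate animal. The p-values therefore rest on the spread among these libraries, some of which may be technical.

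Type I interferons signal through Ifnar1 and Ifnar2, and interferon gamma through Ifngr1 and Ifngr2. Receptor-bound kinases then activate STAT proteins, and the complex of STATs with Irf9 binds a DNA element of repeated GAAA cores, the interferon-stimulated response element, whereas STAT dimers bind a shorter palindrome, the gamma-activated site. In dystrophic muscle, fibres break down and are rebuilt in the presence of macrophages and other immune cells, which carry interferon receptors as muscle fibres do.

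The libraries held 17125084 to 28116085 reads assigned to genes. Mitochondrial genes took 14.4 to 17.0% of them in DMD_KD, 11.9 to 13.97% in DMD_ND and 19.7 to 25.1% in WT_ND, so this share moved with both main comparisons, and its part in the results was not tested. Dmd itself averaged 1.36 ± 0.545 FPKM (SD, n = 6) in DMD_KD, 1.76 ± 0.208 FPKM (n = 6) in DMD_ND and 7.32 ± 3.32 FPKM (n = 4) in WT_ND, and no mutant library reached the lowest wild-type one. Markers of muscle fibres were abundant in every library. DMD_KD replicate 3 stood apart from all others on the second principal component (-57.5), so results are also given without it where it matters. The wild-type libraries were split on the same component, with WT_ND replicates 1 and 4 at -14 and -18.8 and replicates 3 and 9 at 30.1 and 25.3. RNA came from whole muscle, so fewer cells of a type and less RNA per cell cannot be told apart. DMD_ND serves in both main comparisons, the genotype comparison (DMD_ND against WT_ND) and the diet comparison (DMD_KD against DMD_ND), so their values are set side by side and not correlated.

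Most of the interferon-stimulated genes were higher in mutant than in wild-type muscle on the same normal diet. Of the 31 tested, 22 rose in DMD_ND against WT_ND, 1 fell (Cmpk2) and 8 were not called (limma on log2(FPKM + 1), Benjamini-Hochberg adjusted p under 0.05 over 12119 genes). Among all genes tested in this comparison, 31.5% rose and 34.3% fell. The median log2 fold change was 0.68 over the 31 members and -0.04 over all genes. With no overlap between the libraries of the groups, 17 members were higher, against 26.8% of all genes, and 1 was lower, against 28.3%. Scaling every library to an equal total (TPM) shifts the median gene by 0.83 in this comparison, and under it 29 members were called higher and 0 lower, where 70.7% of all genes were higher and 5.94% lower, with Cmpk2 turning to 0.038 and Oas1a to 0.32. When libraries were left out in turn, 20 of the 23 calls held every time. Because a gene can pass the filter through its mutant libraries alone, the 20 members at 1 FPKM or more in every WT_ND library were also counted by themselves. Of these, 13 rose and 1 fell. The share of all genes under that condition was not counted, and the shares above are for the wider filter, so they are no measure for these 20.

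On the MCTKD diet most of the 31 tested genes had lower mean levels in mutant muscle than on ND, but no single one passed the test. In DMD_KD against DMD_ND, 0 of the 31 were called by limma, where 0.00825% of all genes were (1 gene). The exact rank-sum test also called 0, but this adds no support. With 6 libraries in each group, genes without overlap share its smallest possible p. Too few genes were without overlap for any of them to pass the adjustment. At an unadjusted p under 0.05 there were 16 of the 31, against 14.3% of all genes. The log2 fold change was negative for 28 of the 31, where 51.1% of all genes were negative, and the median was -0.32 over the members and -0.01 over all genes. The 3 positive ones were Ifnar1, Cmpk2 and Ifi35, of which Ifnar1 and Ifi35 turn negative under TPM scaling, which shifts the median gene by -0.24. In 4 members, Stat2, Usp18, Ifit2 and Ifitm3, every DMD_KD library lay below every DMD_ND library, as in 0.635% of all genes, and in 0 members did every one lie above, as in 0.842% of all genes. Without DMD_KD replicate 3 there were still 28 negative members, with a median of -0.27.

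**Figure D1:**
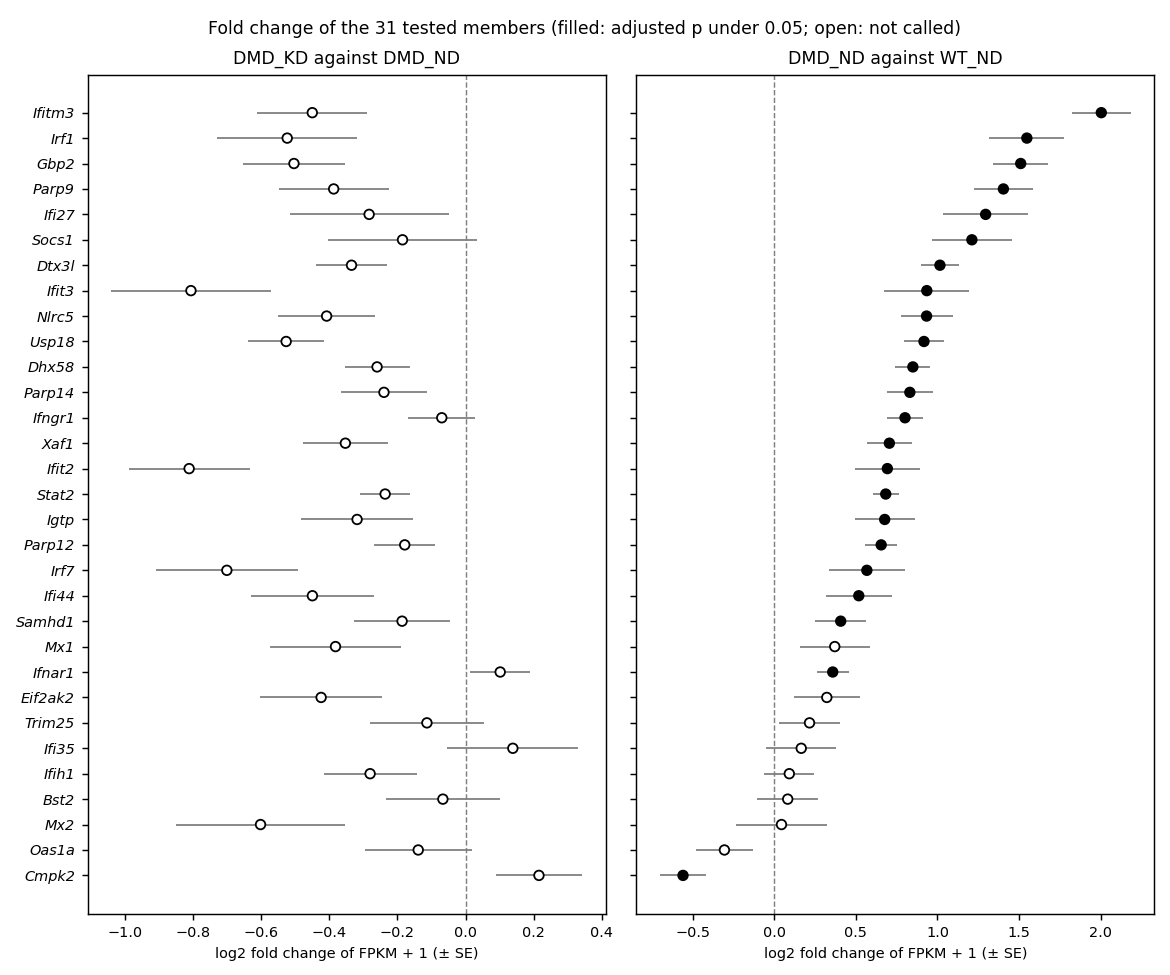
Log2 fold change of FPKM + 1 with its standard error for each of the 31 tested members, ordered by the genotype comparison; DMD_KD against DMD_ND is on the left and DMD_ND against WT_ND on the right, and filled points have an adjusted p under 0.05. On the right, 22 points are filled above 0 and 1 below it (Cmpk2, which turns to 0.038 under TPM scaling); on the left no point is filled and 28 lie below 0, or 30 under TPM scaling.

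The remaining members gave no test. Ifit1 had no row in the table and was not analysed here. Isg15, Irf9, Isg20, Rsad2, Herc6 and Zbp1 stayed below 1 FPKM in every library. Oasl reached 1 FPKM in 3 libraries and at most 1.70 FPKM, in DMD_ND replicate 7. Isg15, the ubiquitin-like protein that is attached to others during the response, was at 0 in all 16 libraries, which allows up to 3 reads in each. In the deposited annotation it lies wholly within Agrn on the same strand, and Irf9, at most 0.185 FPKM, lies wholly within Rnf31 on the same strand; the counting of reads that fall in 2 genes is not described here, and a value near 0 does not show that either gene was silent. Isg20, an exonuclease that shares 9382 bases with Aen on the same strand, ranged from 0.219 to 0.707 FPKM in DMD_KD, from 0.486 to 0.814 FPKM in DMD_ND and from 0.0512 to 0.320 FPKM in WT_ND. Herc6, a ligase that attaches Isg15 in rodents, ranged from 0.109 to 0.451 FPKM in DMD_KD, from 0.426 to 0.858 FPKM in DMD_ND and from 0.192 to 0.900 FPKM in WT_ND. Zbp1, a sensor of Z-form nucleic acid, stayed at or below 0.435 FPKM. Among the tested members, levels per length were highest for Ifitm3, Ifi27, Ifngr1 and Bst2, with DMD_ND means of 149, 136, 38.1 and 32.8 FPKM, and all others averaged below 10 FPKM in that group.

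Promoter sequence was read for the members that RefSeq places in GRCr8, as windows of 250 bases before to 50 bases after the gene's start. Of the 39 members, 31 matched. Dhx58, Mx2, Ifit1, Isg15, Usp18, Ifit2, Zbp1 and Nlrc5 have no entry. The response element was searched as GAAANNGAAA on both strands and the gamma-activated site as TTCNNNGAA, which reads alike on both strands. The first was found in 18 of the 31 promoters (58.1%), against 3.92% of all 33469 promoters in the table, and the second in 9 (29%), against 8.87%. Both were present in 6 members and neither in 10. Of 23 matches of the response element, 20 lay wholly within the 150 bases before the start. The following 60-base stretches are shown because they carry these matches in members that the results turn on; each is written 5′ to 3′ on the gene's own strand. The first group rose in DMD_ND against WT_ND.
Ifitm3 (chr1:205541768-205541827, minus strand): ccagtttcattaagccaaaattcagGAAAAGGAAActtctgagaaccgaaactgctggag
Ifi27 (chr6:128355203-128355262, plus strand): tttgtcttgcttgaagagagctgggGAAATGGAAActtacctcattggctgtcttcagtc
Irf1 (chr10:38417767-38417826, plus strand): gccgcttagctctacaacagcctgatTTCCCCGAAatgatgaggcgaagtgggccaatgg
Gbp2 (chr2:234005667-234005726, plus strand): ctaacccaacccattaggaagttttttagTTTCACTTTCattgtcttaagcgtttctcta
Socs1 (chr10:5389448-5389507, plus strand): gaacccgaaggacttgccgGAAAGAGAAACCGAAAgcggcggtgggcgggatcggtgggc
Ifit3 (chr1:241527257-241527316, plus strand): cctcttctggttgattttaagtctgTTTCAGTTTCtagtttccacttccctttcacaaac
Irf7 (chr1:205800058-205800117, minus strand): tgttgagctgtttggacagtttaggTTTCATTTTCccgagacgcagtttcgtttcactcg
The next group was not called in DMD_ND against WT_ND.
Bst2 (chr16:18255058-18255117, minus strand): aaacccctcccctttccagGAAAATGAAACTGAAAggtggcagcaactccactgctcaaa
Oas1a (chr12:41330406-41330465, plus strand): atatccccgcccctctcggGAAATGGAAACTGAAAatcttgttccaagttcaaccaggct
Eif2ak2 (chr6:21941094-21941153, plus strand): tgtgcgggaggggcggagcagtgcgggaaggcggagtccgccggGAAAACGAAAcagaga
The capitals mark the response element in all but Irf1, where they mark the gamma-activated site. In Gbp2, Ifit3 and Irf7 the match is on the opposite strand. Socs1, Bst2 and Oas1a each have 2 overlapping matches, so that 3 GAAA cores stand in a row. In Bst2 a gamma-activated site match also overlaps the first of them, and in Ifitm3 one follows the response element, neither marked by capitals of its own.

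**Figure D2:**
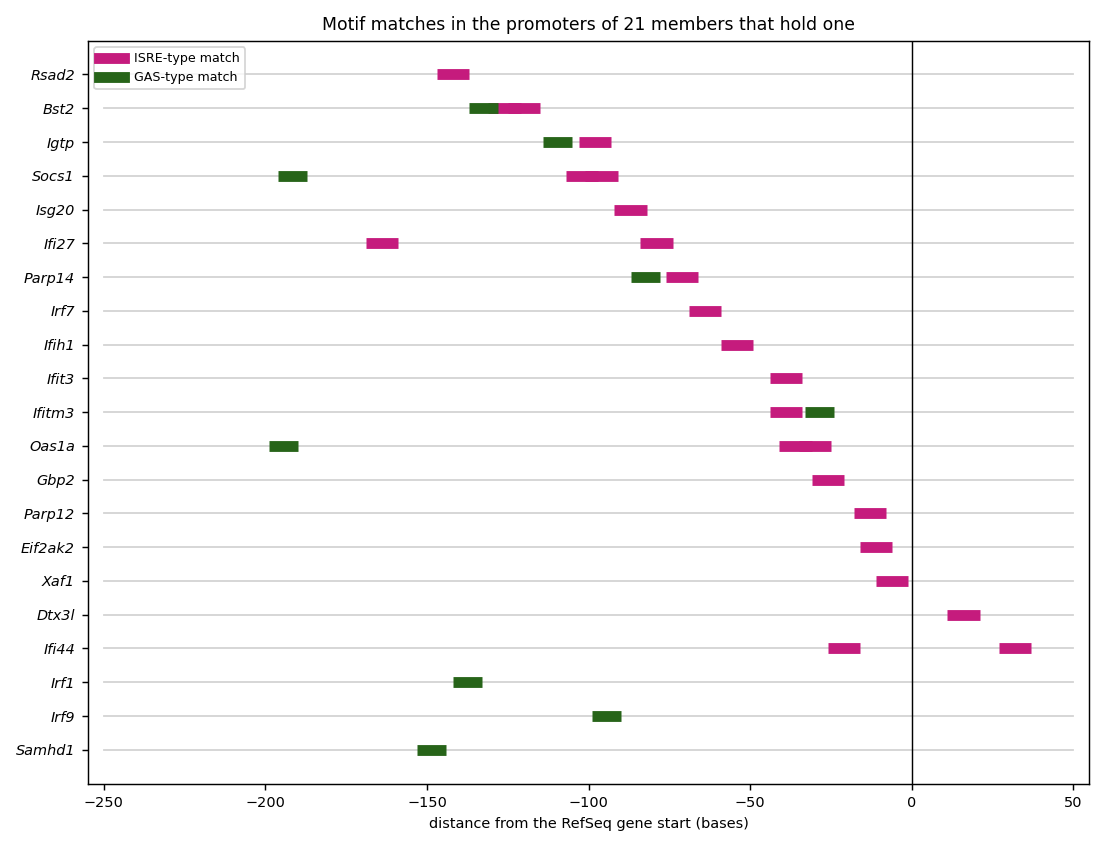
Position of each match in the 21 members whose RefSeq promoter holds one, as distance in bases from the gene's start (vertical line at 0); the response element (ISRE) is in pink and the gamma-activated site (GAS) in green. Of 23 ISRE matches, 20 lie wholly within 150 bases upstream of the start, and Irf1, Irf9 and Samhd1 hold only the GAS-type match.

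Among tested members with a response element match, 12 of 16 rose in DMD_ND against WT_ND, none fell and 4 were not called. Among tested members without one in this window, 6 of 10 rose, 1 fell and 3 were not called. Dhx58, Mx2, Usp18, Ifit2 and Nlrc5 were tested but have no promoter entry, and are in neither count. Of all genes 31.5% rose and 34.3% fell, and these were not divided by the match. The counts with and without a match were not compared by a test. A match is a description of letters in a window and was not tied to binding by any measurement here.

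All 8 tested signalling members rose in DMD_ND against WT_ND, where 31.5% of all genes did. Among the receptors, Ifngr1, the ligand-binding chain for interferon gamma, ranged from 30.9 to 38.7 FPKM in DMD_KD, from 33.2 to 43.1 FPKM in DMD_ND and from 18.6 to 24.3 FPKM in WT_ND. Ifnar1, a chain of the type I receptor, ranged from 6.77 to 9.03 FPKM in DMD_KD, from 6.38 to 8.66 FPKM in DMD_ND and from 4.96 to 5.99 FPKM in WT_ND. For both receptors the mutant libraries of each diet stood above all wild-type ones and overlapped each other. DMD_ND exceeded WT_ND by log2 fold changes of 0.80 (SE 0.11) for Ifngr1 and 0.36 (SE 0.10) for Ifnar1, with limma adjusted p = 6.77e-06 and 0.00425.

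Irf1, a transcription factor induced by interferon gamma through a gamma-activated site (ENSRNOG00000008144, chromosome 10, 37916670 to 37924166 in mRatBN7.2), ran from 4.32 through a median of 5.67 to 9.05 FPKM in DMD_KD and from 6.46 through 8.28 to 18.2 FPKM in DMD_ND. In WT_ND it was 3.17, 2.45, 2.24 and 1.89 FPKM. Every mutant library was above every wild-type one, DMD_ND replicate 7 was far above the rest of its group, and the diets overlapped. The log2 fold change was 1.55 (SE 0.23, adjusted p = 1.55e-05) for DMD_ND against WT_ND and -0.52 (SE 0.20, adjusted p = 0.273) for DMD_KD against DMD_ND. Its gamma-activated site match lies at bases -142 to -134 of the promoter printed above.

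Irf7, the factor that amplifies type I interferon production (ENSRNOG00000017414, chromosome 1, 196367361 to 196370832), ran from 2.06 through 4.96 to 6.46 FPKM in DMD_KD and from 5.17 through 8.32 to 10.8 FPKM in DMD_ND, and in WT_ND it was 6.33, 3.81, 4.53 and 4.78 FPKM. Only some DMD_ND libraries stood out, and each pair of groups overlapped. DMD_ND exceeded WT_ND by 0.57 (SE 0.23, adjusted p = 0.0402), a call that was lost in 7 of the 10 fits that left out a library (adjusted p up to 0.113, without WT_ND replicate 3). DMD_KD differed from DMD_ND by -0.70 (SE 0.21, adjusted p = 0.204) and from WT_ND by -0.13 (adjusted p = 0.642), the last turning to 0.50 under TPM scaling.

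Stat2, the STAT that joins Irf9 on the response element (ENSRNOG00000031081, chromosome 7, 702495 to 718967), varied little within each group. Its DMD_KD libraries lay between 4.98 and 5.25 FPKM with a median of 5.15 FPKM, its DMD_ND libraries between 5.46 and 6.90 FPKM with a median of 6.23 FPKM, and its WT_ND libraries at 3.27, 3.17, 3.81 and 3.73 FPKM. The groups formed separate bands, DMD_ND highest, then DMD_KD, then WT_ND. The log2 fold change was 0.68 (SE 0.08, adjusted p = 1.31e-06) for DMD_ND against WT_ND and -0.24 (SE 0.07, adjusted p = 0.21) for DMD_KD against DMD_ND.

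Nlrc5, the transactivator of MHC class I genes (ENSRNOG00000048222, chromosome 19, 10477628 to 10562121), ran from 0.803 through 1.15 to 1.85 FPKM in DMD_KD and from 1.38 through 2.04 to 2.86 FPKM in DMD_ND, and in WT_ND it was 0.453, 0.379, 0.392 and 1.12 FPKM. The DMD_ND libraries all exceeded WT_ND, and the diets overlapped. The log2 fold changes were 0.93 (SE 0.16, adjusted p = 6.9e-05) for DMD_ND against WT_ND and -0.41 (SE 0.14, adjusted p = 0.241) for DMD_KD against DMD_ND.

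The feedback inhibitors rose as well. Socs1, which blocks the receptor-bound kinases (ENSRNOG00000002568, chromosome 10, 4882560 to 4884383), ran from 0.801 through 1.81 to 2.06 FPKM in DMD_KD and from 1.07 through 1.77 to 5.48 FPKM in DMD_ND, against 0.0691, 0.202, 0.386 and 0.558 FPKM in WT_ND. All mutant libraries were above all wild-type ones, the diets overlapped, and DMD_ND replicate 7 again stood far above its group. The ratio of the group means was 7.35 for DMD_ND over WT_ND, with as few as 1 read in a wild-type library, and the log2 fold change, held down at low values by the added 1, was 1.21 (SE 0.25, adjusted p = 0.000353). DMD_KD differed from DMD_ND by -0.19 (SE 0.22, adjusted p = 0.69).

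Usp18, which removes Isg15 from proteins and shuts off the type I receptor (ENSRNOG00000037198, chromosome 4, 154471592 to 154499144), ran from 2.02 through 2.36 to 2.68 FPKM in DMD_KD and from 3.17 through 4.03 to 4.32 FPKM in DMD_ND, and in WT_ND it was 2.27, 1.39, 1.03 and 1.67 FPKM. DMD_ND was clear of both other groups, while DMD_KD and WT_ND overlapped. The log2 fold change was 0.92 (SE 0.13, adjusted p = 6.5e-06) for DMD_ND against WT_ND and -0.53 (SE 0.11, unadjusted p = 0.000205, adjusted p = 0.14) for DMD_KD against DMD_ND. Giving each library a weight for its noise made this diet difference, and that of Ifit2, the only member calls of the diet comparison (-0.51 for Usp18 and -0.69 for Ifit2, adjusted p = 0.028 each, among 93 genes called). Over all the alternatives tried, the adjusted p of each ran from 0.028 to 0.313.

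**Figure D3:**
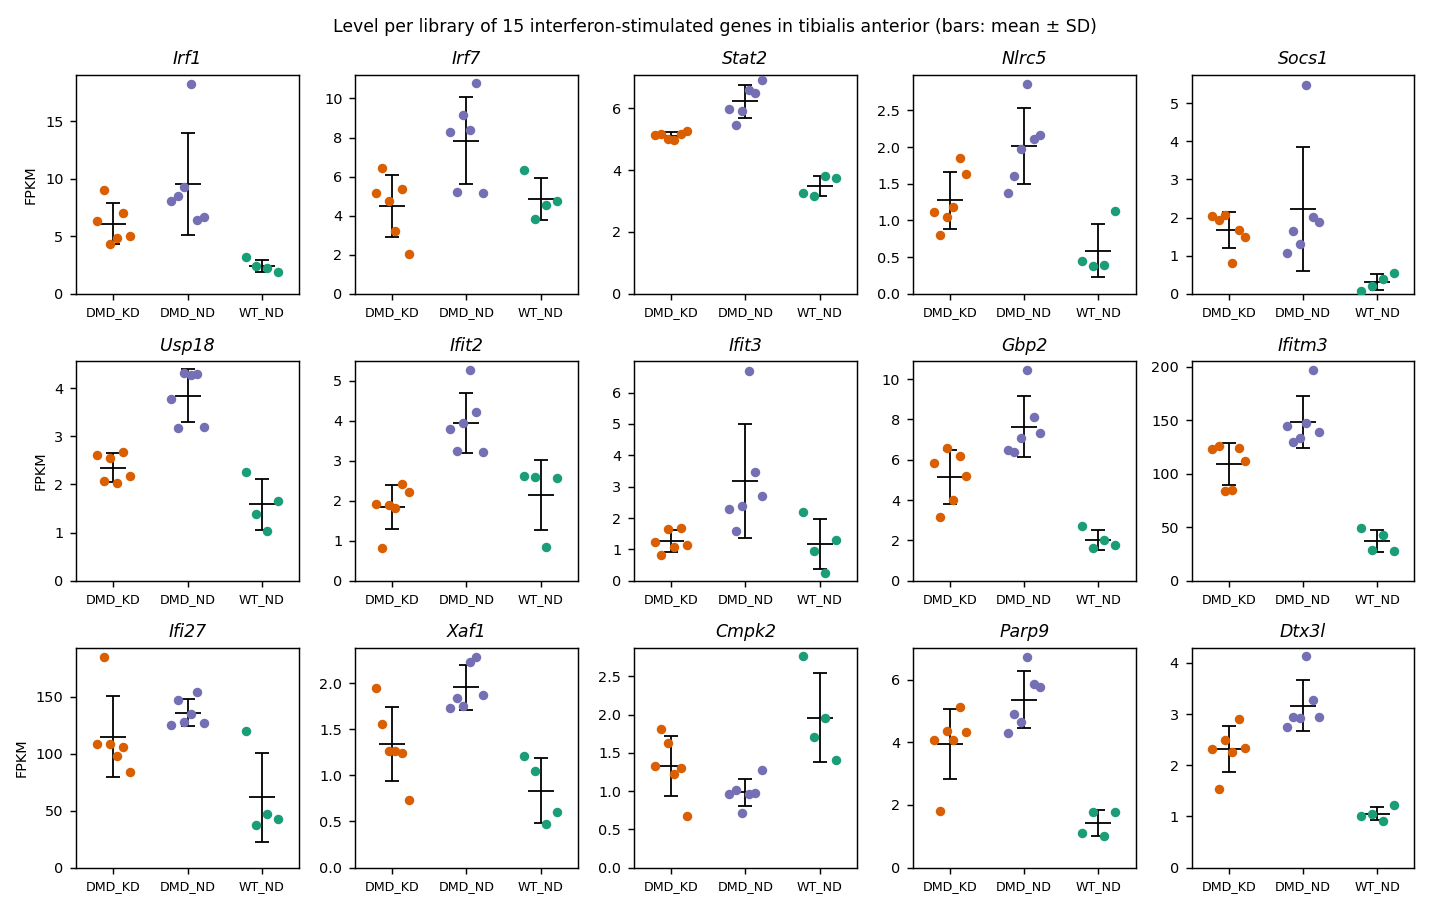
FPKM in each library of the 15 members named by the fixed rule, with DMD_KD (n = 6), DMD_ND (n = 6) and WT_ND (n = 4) from left to right in each panel; bars give the mean and SD, and each panel has its own linear axis. Stat2, Usp18, Ifit2 and Ifitm3 have no overlap between the diets, and Cmpk2 is the one panel in which DMD_ND lies below WT_ND (an order that TPM scaling turns, to a log2 fold change of 0.038).

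Of 4 tested sensors, Dhx58 rose in DMD_ND against WT_ND and Ifih1, Eif2ak2 and Trim25 were not called, where 31.5% of all genes rose. Dhx58, a helper of the RNA helicase sensors, ran from 0.930 through 1.33 to 1.62 FPKM in DMD_KD and from 1.37 through 1.89 to 2.01 FPKM in DMD_ND, against 0.655, 0.383, 0.430 and 0.648 FPKM in WT_ND. Every mutant library was above the wild-type range, with a log2 fold change of 0.85 (SE 0.11, adjusted p = 2.43e-06) for DMD_ND against WT_ND. Ifih1, the sensor of long double-stranded RNA also called MDA5, averaged 1.14 ± 0.393 FPKM in DMD_KD, 1.57 ± 0.323 FPKM in DMD_ND (SD, n = 6 each) and 1.42 ± 0.403 FPKM in WT_ND (n = 4). Eif2ak2, the kinase PKR that halts translation on double-stranded RNA, averaged 3.70 ± 1.17 FPKM in DMD_KD, 5.22 ± 1.24 FPKM in DMD_ND and 3.99 ± 1.08 FPKM in WT_ND. For both genes the groups overlapped, and the genotype fold changes were 0.09 (adjusted p = 0.61) and 0.32 (adjusted p = 0.17). Trim25, a ubiquitin ligase of the helicase pathway, ranged from 2.53 to 4.46 FPKM in DMD_ND and from 1.80 to 3.98 FPKM in WT_ND. Under TPM scaling these 3 sensors were called higher (0.82 for Ifih1, 1.23 for Eif2ak2 and 1.07 for Trim25), beside the shift of 0.83 for the median gene.

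Among the RNA-binding effectors, Ifit2 and Ifit3 rose in mutant muscle on ND, while their DMD_KD means of 1.85 and 1.27 FPKM stood beside wild-type means of 2.15 and 1.17 FPKM. Ifit2, which binds viral RNA and slows its translation (ENSRNOG00000036604, chromosome 1, 232102570 to 232108635), ran from 0.823 through 1.91 to 2.43 FPKM in DMD_KD and from 3.22 through 3.87 to 5.27 FPKM in DMD_ND, and in WT_ND it was 2.63, 2.59, 0.833 and 2.56 FPKM. Every DMD_ND library exceeded every library of both other groups, which overlapped each other. DMD_ND exceeded WT_ND by 0.69 (SE 0.20, adjusted p = 0.00549), and DMD_KD differed from DMD_ND by -0.81 (SE 0.18, unadjusted p = 0.000271, adjusted p = 0.14). Against WT_ND, DMD_KD differed by -0.12 (SE 0.20, adjusted p = 0.629), which was 0.0050 without DMD_KD replicate 3 and 0.43 under TPM scaling.

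Its neighbour Ifit3 (ENSRNOG00000022839, chromosome 1, 232114166 to 232119307) ran from 0.826 through 1.19 to 1.69 FPKM in DMD_KD and from 1.60 through 2.54 to 6.67 FPKM in DMD_ND, with 2.20, 0.945, 0.250 and 1.30 FPKM in WT_ND. DMD_ND replicate 7 was the highest of all libraries, and each group overlapped its neighbours. The log2 fold changes were 0.93 (SE 0.26, adjusted p = 0.00463) for DMD_ND against WT_ND, -0.81 (SE 0.23, adjusted p = 0.195) for DMD_KD against DMD_ND and 0.13 (SE 0.26, adjusted p = 0.694) for DMD_KD against WT_ND. The last was -0.11 without WT_ND replicate 4 and 0.64 under TPM scaling (adjusted p = 0.104). Oas1a, an oligoadenylate synthetase with near-identical copies in the rat between which reads may be split, averaged 0.990 ± 0.358 FPKM in DMD_KD, 1.18 ± 0.349 FPKM in DMD_ND and 1.76 ± 0.786 FPKM in WT_ND. Its genotype fold change of -0.31 (SE 0.18, adjusted p = 0.138) was not called, became -0.47 (adjusted p = 0.028) without WT_ND replicate 4 and turned to 0.32 under TPM scaling. Its promoter above holds 2 overlapping response element matches.

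The interferon-inducible GTPases were divided. Gbp2, a guanylate-binding protein that attacks the vacuoles of microbes (ENSRNOG00000031743, chromosome 2, 231332284 to 231348571), ran from 3.14 through 5.50 to 6.60 FPKM in DMD_KD and from 6.40 through 7.21 to 10.4 FPKM in DMD_ND, and in WT_ND it was 2.71, 1.63, 2.02 and 1.75 FPKM. All mutant libraries exceeded all wild-type ones, and the diets met only at their edges. The log2 fold changes were 1.51 (SE 0.17, adjusted p = 7.05e-07) for DMD_ND against WT_ND and -0.50 (SE 0.15, adjusted p = 0.209) for DMD_KD against DMD_ND. Igtp, an immunity-related GTPase, ranged from 3.81 to 6.02 FPKM in DMD_KD, from 4.70 to 10.4 FPKM in DMD_ND and from 2.72 to 4.99 FPKM in WT_ND, and rose by 0.68 (SE 0.18, adjusted p = 0.00391) in DMD_ND against WT_ND.

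The dynamin-like Mx1 and Mx2, which bind viral capsids and polymerases, were not called. Mx1 ranged from 0.456 to 2.12 FPKM in DMD_KD, from 1.29 to 2.76 FPKM in DMD_ND and from 0.743 to 2.13 FPKM in WT_ND. Mx2 ranged from 1.01 to 4.16 FPKM in DMD_KD, from 2.38 to 5.53 FPKM in DMD_ND and from 2.59 to 6.59 FPKM in WT_ND. The highest wild-type value of both was in WT_ND replicate 1, and without it the genotype fold change of Mx1, 0.37 (adjusted p = 0.141), became 0.55 (adjusted p = 0.0395). Mx1 and Mx2 are close copies, so their split of reads is uncertain.

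The membrane protein Ifitm3 had the largest genotype change of the 31 on the log2(FPKM + 1) scale; by the ratio of means Socs1 was above it. It restricts the entry of viruses by endosomes (ENSRNOG00000015078, chromosome 1, 196111043 to 196112203), and it ran from 84.3 through 117 to 126 FPKM in DMD_KD and from 129.6 through 142 to 197 FPKM in DMD_ND, with 49.0, 28.3, 42.5 and 28.2 FPKM in WT_ND. The 3 groups did not overlap. DMD_ND exceeded WT_ND 4.01-fold (SE 0.18 on the log2 scale, adjusted p = 6.22e-08). DMD_KD was above WT_ND by 1.55 on the log2 scale (SE 0.18) and differed from DMD_ND by -0.45 (SE 0.16, adjusted p = 0.252). Ifitm1 and Ifitm2 are close copies of it, so the split of reads among them is uncertain.

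Ifi27, a small mitochondrial and nuclear membrane protein (ENSRNOG00000009263, chromosome 6, 122590472 to 122779294), ran from 84.0 through 107 to 184 FPKM in DMD_KD and from 125 through 131 to 154 FPKM in DMD_ND, and in WT_ND it was 119, 37.1, 46.9 and 42.6 FPKM. DMD_ND was above every wild-type library, but WT_ND replicate 1 and DMD_KD replicate 3 each stood far above their own group. The log2 fold changes were 1.30 (SE 0.26, adjusted p = 0.00033) for DMD_ND against WT_ND and -0.28 (SE 0.23, adjusted p = 0.55) for DMD_KD against DMD_ND. Its span in the annotation overlaps Ifi27l2b on the opposite strand by 1489 bases, and whether reads were counted by strand is not known from the labels.

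Xaf1, an inducer of cell death (ENSRNOG00000037371, chromosome 10, 56917121 to 56929770), ran from 0.731 through 1.26 to 1.94 FPKM in DMD_KD and from 1.73 through 1.85 to 2.29 FPKM in DMD_ND, with 1.20, 1.05, 0.468 and 0.603 FPKM in WT_ND. DMD_ND was above every wild-type library, and the diets overlapped through 1 DMD_KD library. The log2 fold changes were 0.71 (SE 0.14, adjusted p = 0.000291) for DMD_ND against WT_ND and -0.35 (SE 0.13, adjusted p = 0.247) for DMD_KD against DMD_ND. Ifi44 and Samhd1, a phosphohydrolase that drains the nucleotide pool, rose by 0.52 (adjusted p = 0.0327) and 0.41 (adjusted p = 0.0301) in DMD_ND against WT_ND. Each of these calls was lost in 5 of the 10 fits that left out a library, with adjusted p up to 0.0981 for Ifi44 (without WT_ND replicate 1) and up to 0.075 for Samhd1 (without WT_ND replicate 3).

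Bst2, or tetherin, which holds budding virus on the cell, was abundant and overlapped across all groups, from 23.8 to 46.5 FPKM in DMD_KD, from 23.7 to 43.5 FPKM in DMD_ND and from 25.3 to 36.8 FPKM in WT_ND. Its genotype fold change of 0.08 (SE 0.19, adjusted p = 0.712) was not called. Its promoter above is one of those with overlapping matches. Ifi35, which shares 408 bases with Vat1 on the opposite strand, had a genotype fold change of 0.16 (SE 0.21, adjusted p = 0.513). Under TPM scaling both were called higher, at 1.08 each.

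Cmpk2, a mitochondrial nucleotide kinase that is often induced together with its genomic neighbour Rsad2 (ENSRNOG00000007690, chromosome 6, 43073796 to 43085183), was the exception. It ran from 0.670 through 1.31 to 1.82 FPKM in DMD_KD and from 0.718 through 0.970 to 1.28 FPKM in DMD_ND, with 2.76, 1.71, 1.96 and 1.40 FPKM in WT_ND. All DMD_ND libraries lay below all wild-type ones, while DMD_KD overlapped both groups. It fell by 0.56 on the log2 scale in DMD_ND against WT_ND (SE 0.14, adjusted p = 0.00232, turning to 0.038 under TPM scaling), and DMD_KD differed from DMD_ND by 0.22 (SE 0.13, adjusted p = 0.422). Rsad2, or viperin, was below the filter, with 0.0401 to 0.533 FPKM in DMD_KD, 0.142 to 0.713 FPKM in DMD_ND and 0.174 to 0.764 FPKM in WT_ND.

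All 4 members of the last group, the ADP-ribosyltransferases Parp9, Parp12 and Parp14 and the ubiquitin ligase Dtx3l that pairs with Parp9, rose in DMD_ND against WT_ND with no overlap. Among all genes, 26.8% were higher with no overlap. Parp9 (ENSRNOG00000023463, chromosome 11, 64780981 to 64815455) ran from 1.82 through 4.20 to 5.13 FPKM in DMD_KD and from 4.29 through 5.34 to 6.72 FPKM in DMD_ND, against 1.10, 1.76, 1.02 and 1.78 FPKM in WT_ND. Dtx3l (ENSRNOG00000023400, chromosome 11, 64814926 to 64824538) ran from 1.53 through 2.33 to 2.91 FPKM in DMD_KD and from 2.75 through 2.95 to 4.12 FPKM in DMD_ND, against 1.01, 1.05, 0.914 and 1.23 FPKM in WT_ND. The lowest DMD_KD value of both was in DMD_KD replicate 3, the other 5 DMD_KD libraries of Parp9 lying between 4.07 and 5.13 FPKM. The log2 fold changes for DMD_ND against WT_ND were 1.40 (SE 0.18, adjusted p = 3.35e-06) and 1.02 (SE 0.12, adjusted p = 8.68e-07), and for DMD_KD against DMD_ND they were -0.39 (adjusted p = 0.302) and -0.33 (adjusted p = 0.212). The pair start from neighbouring positions on opposite strands and share 530 bases, so reads of one may be counted for the other. Parp12 and Parp14 rose by 0.65 (SE 0.10) and 0.83 (SE 0.14), with adjusted p = 1.94e-05 and 6.94e-05.

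**Figure D4:**
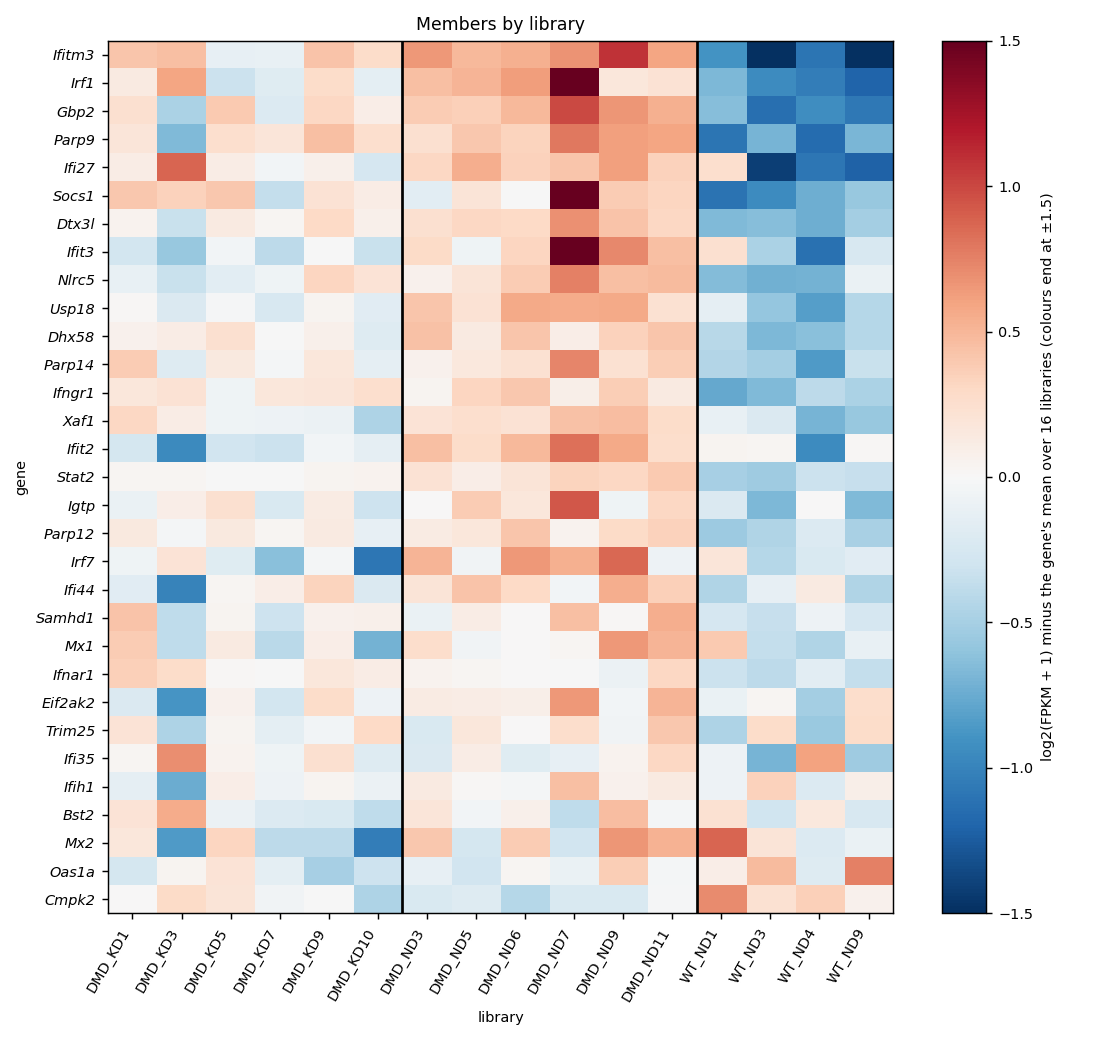
Log2(FPKM + 1) of the 31 tested members (rows, in the order of the genotype comparison) in each of the 16 libraries (columns, in the groups DMD_KD, DMD_ND and WT_ND), minus the gene's mean over all libraries; colours end at 1.5 either way. The upper rows are redder in DMD_ND than in WT_ND and intermediate in DMD_KD; DMD_ND replicate 7 is the highest of its group in 12 rows and DMD_KD replicate 3 the lowest of its group in 12, and the bottom row, Cmpk2, runs the other way (not so under TPM scaling).

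Libraries of a group did not move as a block. DMD_ND replicate 7 was the highest of its group for 12 of the 31 members and the lowest for 5, and DMD_KD replicate 3 was the lowest of its group for 12 and the highest for 7. Among wild-type libraries, replicate 1 was the highest for 14 members and replicate 4 the lowest for 13. Without DMD_KD replicate 3, DMD_ND replicate 7 and WT_ND replicate 1 together, 22 members were still called higher and 1 lower in DMD_ND against WT_ND. Of all genes, 31.7% were then higher and 34.2% lower. In DMD_KD against DMD_ND, 0 members were called with 26 negative, and the median of the diet comparison was -0.22.

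About as many members were called higher as were not when mutant muscle on MCTKD was set against wild type. In DMD_KD against WT_ND, 16 of the 31 members were higher, 2 lower and 13 not called, where 27.3% of all genes were higher and 31.1% lower. Fitted on these groups alone, 15 were higher and 0 lower, where 25.7% of all genes were higher and 26.3% lower. By the exact rank-sum test 12 were higher and 0 lower, where 22.6% of all genes were higher and 20.8% lower. Of the members called higher by limma, that test did not call Ifi27 (rank-sum adjusted p = 0.246), Nlrc5 and Usp18 (0.112 each) or Xaf1 (0.0707). The median log2 fold change was 0.36 over the members and -0.06 over all genes. With no overlap, 12 were higher, against 20% of all genes, and 0 lower, against 17.3%. The lower ones were Cmpk2 (-0.34, adjusted p = 0.0467, turning to 0.12 under TPM scaling) and Oas1a (-0.44, adjusted p = 0.0387, and -0.07 under TPM scaling). On the log2(FPKM + 1) scale, on which the added 1 holds down low genes, the largest rises were Ifitm3 (1.55), Socs1 (1.03), Irf1 (1.02), Parp9 (1.02), Ifi27 (1.01) and Gbp2 (1.01). Members called in DMD_ND against WT_ND but not here, such as Ifit2 and Irf7, were not shown by that to differ between the diets, which the diet comparison tests directly. Of the 18 calls, 14 held in every fit that left out a library; those of Cmpk2, Oas1a, Xaf1 and Usp18 did not, with adjusted p up to 0.2 for Cmpk2 (without WT_ND replicate 1), 0.172 for Oas1a (without WT_ND replicate 9), 0.153 for Xaf1 and 0.0657 for Usp18 (both without WT_ND replicate 4). TPM scaling shifts the median gene by 0.56 in this comparison, and 21 members were then called higher and 0 lower, where 57.2% of all genes were higher and 4.73% lower.

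Transcripts of the interferons themselves were barely seen. Of 11 interferon ligand genes looked for, 8 were in the table and 0 passed the filter. Ifnb1, Ifna1, Ifnl1 and Ifnl3 were at 0 in every library. Ifng, interferon gamma, reached at most 0.0902 FPKM in DMD_KD and 0.387 FPKM in DMD_ND and was at 0 in WT_ND, from 12 reads in all. Ifne, an interferon best known from the reproductive tract, ranged from 0.269 to 0.497 FPKM in DMD_KD and from 0.172 to 0.567 FPKM in DMD_ND and was at 0 in WT_ND, from 146 reads in all. These levels are too low to compare the diets.

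Of 5 tested genes for other receptor chains and their kinases, 4 rose in DMD_ND against WT_ND and Jak1 fell by 0.33 on the log2 scale (turning to 0.65 under TPM scaling). Among all genes in this comparison 31.5% rose and 34.3% fell, shares that also stand beside the counts of the next lists. Ifnlr1, the specific chain of the interferon lambda receptor, ranged from 0.700 to 2.02 FPKM in DMD_KD, from 1.75 to 5.81 FPKM in DMD_ND and from 0 to 0.0839 FPKM in WT_ND. Its genotype fold change was 1.79 (SE 0.21, adjusted p = 1.27e-06) and its diet fold change -0.71 (SE 0.19, adjusted p = 0.148). Of 10 tested genes upstream in nucleic acid sensing, 6 rose, among them the adaptor Myd88 (1.88) and the factor Irf5 (1.64), and 2 fell, the mitochondrial adaptor Mavs by 1.37 (-0.44 under TPM scaling) and the endosomal receptor Tlr3 by 0.88 (-0.10 and no longer called under TPM scaling, adjusted p = 0.644). Of 6 other interferon regulatory factors and STATs, 3 rose, with Irf8 at 1.74, and Stat4 fell by 0.24 (turning to 0.68 under TPM scaling).

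Of 8 negative regulators, 3 rose and 3 fell in DMD_ND against WT_ND, where 31.5% of all genes rose and 34.3% fell. Under TPM scaling 5 rose and 0 fell, where 70.7% of all genes were higher and 5.94% lower. Socs3, which restrains cytokine receptors of the gp130 type, showed a large and variable rise, with 6.67 to 48.4 FPKM in DMD_KD, 19.4 to 147 FPKM in DMD_ND and 0.606 to 0.902 FPKM in WT_ND. No mutant library came near the wild-type range, whereas the diets overlapped. The genotype fold change was 4.63 (SE 0.48, adjusted p = 2.83e-07) and the diet fold change -1.42 (SE 0.43, adjusted p = 0.21).

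Further genes known to be induced by interferon were examined as a longer list. Of 43 tested rows, 25 rose in DMD_ND against WT_ND, 4 fell and 14 were not called, where 31.5% of all genes rose and 34.3% fell. The median of the rows was 0.42. Under TPM scaling 40 were higher and 0 lower, where 70.7% of all genes were higher and 5.94% lower. Ifitm1, a close copy of Ifitm3, had 32.3 to 60.3 FPKM in DMD_KD, 40.9 to 68.3 FPKM in DMD_ND and 1.27 to 4.46 FPKM in WT_ND (genotype fold change 3.92, SE 0.25). In DMD_KD against DMD_ND, 0 of the 43 rows were called, with a median of -0.13. An unadjusted p under 0.05 was found for 14 rows, against 14.3% of all genes, and 35 rows were negative, against 51.1% of all genes. The one with the smallest p was Cxcl10, a T cell chemokine, with 0.306 to 1.24 FPKM in DMD_KD, 1.09 to 3.16 FPKM in DMD_ND and 0.379 to 0.554 FPKM in WT_ND. Its diet fold change was -0.75 (SE 0.17, adjusted p = 0.14).

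**Figure D5:**
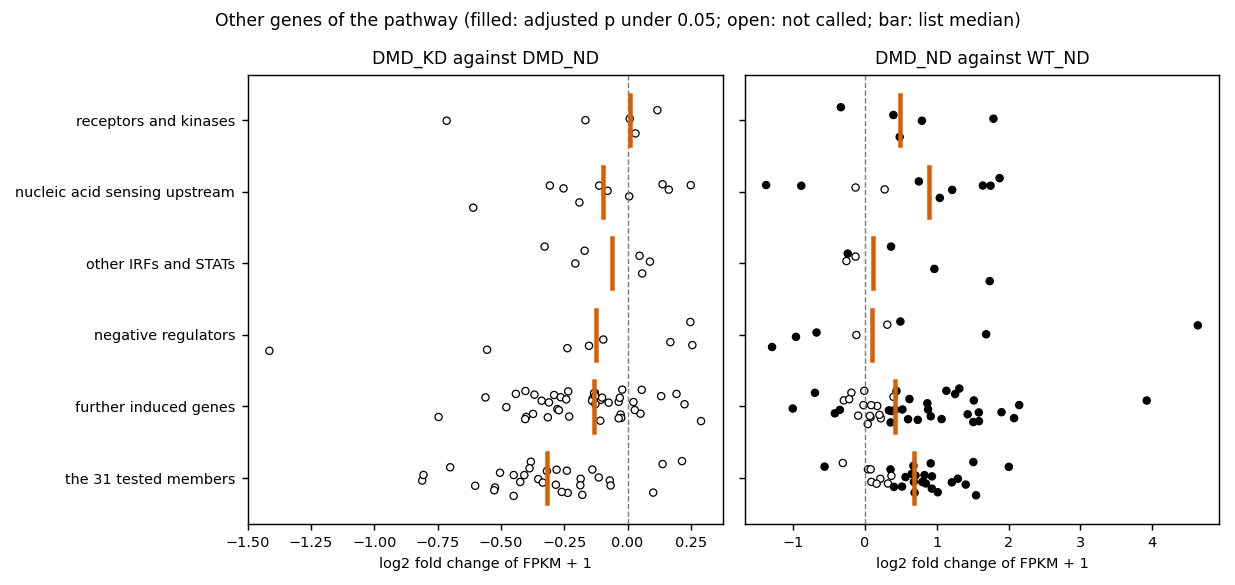
Log2 fold change of FPKM + 1 of each tested gene in 5 lists of other interferon pathway genes and in the 31 members (bottom row), for DMD_KD against DMD_ND on the left and DMD_ND against WT_ND on the right; filled points have an adjusted p under 0.05, and the orange bar is the list's median. The members' medians are -0.32 on the left, where no point is filled, and 0.68 on the right; points left of 0 on the right, such as Jak1 and Stat4, can turn positive under TPM scaling.

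Markers of immune cells, fibro-adipogenic progenitors and adipocytes moved with the genotype comparison, in which 31.5% of all genes rose and 34.3% fell. All 14 macrophage markers rose in DMD_ND against WT_ND, their summed level running from 418 to 683 FPKM in DMD_KD, from 458 to 904 FPKM in DMD_ND and from 28.2 to 71.0 FPKM in WT_ND. The 4 tested of 11 T and NK cell markers in the table rose too, with sums from 6.09 to 10.6 FPKM in DMD_KD, from 6.68 to 10.98 FPKM in DMD_ND and from 1.22 to 2.18 FPKM in WT_ND. All 9 tested markers of fibro-adipogenic progenitors rose, with sums from 1390.1 to 2286 FPKM in DMD_KD, from 1768 to 3042 FPKM in DMD_ND and from 167 to 377 FPKM in WT_ND, as did all 6 of adipocytes, with sums of 118 to 385 FPKM in DMD_ND and 39.2 to 103 FPKM in WT_ND. Muscle fibre markers summed to 36727.5 to 118190 FPKM in DMD_KD, 27757.8 to 47749.8 FPKM in DMD_ND and 63851.1 to 118234 FPKM in WT_ND, and 8 of 10 fell in DMD_ND against WT_ND (3 of 10 under TPM scaling, with 2 higher). Of 9 tested endothelial markers, 2 rose and 2 fell in DMD_ND against WT_ND (7 higher and 0 lower under TPM scaling). Their sums overlapped, from 72.0 to 95.8 FPKM in DMD_KD, from 70.7 to 97.8 FPKM in DMD_ND and from 74.2 to 96.6 FPKM in WT_ND. No marker of these lists was at 0 in every library, and Cd3d was at 0 in every WT_ND library. Their part in the rise of the interferon-stimulated genes was not tested.

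In the diet comparison no marker of any list was called. Of the 14 macrophage markers, 0 were called in DMD_KD against DMD_ND, 0 had an unadjusted p under 0.05 and 12 were negative (all 14 under TPM scaling), with a median of -0.15 against -0.32 for the 31 members. Of all genes, 14.3% had an unadjusted p under 0.05 and 51.1% were negative. Fibro-adipogenic progenitor markers were negative in 8 of 9 (median -0.36, 3 at an unadjusted p under 0.05; all 9 negative under TPM scaling), and the 4 tested T and NK cell markers were all negative (median -0.12). Adipocyte markers were negative in 6 of 6 (median -0.91, 3 at an unadjusted p under 0.05) and summed to 52.7 to 217 FPKM in DMD_KD and 118 to 385 FPKM in DMD_ND. Muscle fibre markers were positive in 9 of 10 (median 0.42, 4 at an unadjusted p under 0.05, with Myh2 turning negative under TPM scaling). Of the plasmacytoid dendritic cell markers, 3 of 6 in the table passed the filter, Il3ra, Bst2 and Irf8. Bst2 is itself a member and Irf8 is among the other interferon regulatory factors above, so this list is not separate from those genes. Siglech, a defining marker below the filter, stayed between 0 and 0.430 FPKM in DMD_KD and between 0.117 and 0.293 FPKM in DMD_ND. The part of these lists in the diet values of the interferon-stimulated genes was not tested.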

How the data were processed

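Messenger RNA from rat tibialis anterior was sequenced in 16 libraries (6 DMD_KD, 6 DMD_ND, 4 WT_ND), grouped by their titles. Reads were aligned with HISAT2 2.0.5 and counted with featureCounts 1.5.0-p3 on mRatBN7.2, per the submitters' processing notes; the gene annotation, the strand setting and the handling of reads with several positions are not stated. The authors deposited 1 table of FPKM values per gene and library. Multiplied by gene length and a factor per library, 100% of the FPKM values came out whole within 0.05 reads, which gave the reads behind each value, and that factor matched median-of-ratios size factors, so the deposited values carry that scaling.

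Tests covered the 12119 genes that reached 1 FPKM in 4 or more libraries and were run with limma 3.58.1 in R 4.3.3 on log2(FPKM + 1), with a mean per group over all 16 libraries, empirical Bayes moderation with trend and robust options, 13 residual degrees of freedom and Benjamini-Hochberg adjustment over all 12119 genes. A gene was called at an adjusted p under 0.05; every adjusted p in the text is limma's unless another test is named, and fold changes on this scale understate those of low genes. The scripts were tested on simulated data. The members and all gene lists were chosen with earlier results of these data known. Members given in full were those with the 10 largest called genotype changes, those called against the general direction, and those with the 10 smallest p in the diet comparison; others are named by their role. Promoters are from RefSeq (GRCr8), with Python 3.11.15. Alternatives changed the pseudocount, filter, scaling, groups fitted, moderation, library weights, a replicate block and the test, and left out libraries. Low values rest on few reads, whose counting error limits their precision.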

Additional observations from a re-analysis of the deposited data

Results flagged for a closer look

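In each group of 4 or 6 libraries, the gap between the highest or lowest library and its nearest neighbour was compared with the group's whole range (Dixon's test at 95%) for the members named by rule. Of 45 groups looked at, 9 held a library that stood apart, where independent, normally distributed values give about 1 in 20. These members share their libraries and were picked by their change or p in these data, so the 9 are no measure against chance. DMD_ND replicate 7 accounts for 3 of these, all high. It had 6.67 FPKM of Ifit3, with the other DMD_ND libraries between 1.60 and 3.46 FPKM. It had 18.2 FPKM of Irf1, with the others between 6.46 and 9.28 FPKM, and 5.48 FPKM of Socs1, with the others between 1.07 and 2.01 FPKM. DMD_KD replicate 3 stood apart in opposite directions for 2 genes, with 184 FPKM of Ifi27 against 84.0 to 108 FPKM in the other DMD_KD libraries, and with 1.82 FPKM of Parp9 against 4.07 to 5.13 FPKM. DMD_ND replicate 9 had 197 FPKM of Ifitm3, with the others between 129.6 and 148 FPKM. Of the wild-type libraries, WT_ND replicate 1 had 119 FPKM of Ifi27 against 37.1 to 46.9 FPKM in the others. WT_ND replicate 4 had 0.833 FPKM of Ifit2 against 2.56 to 2.63 FPKM, and WT_ND replicate 9 had 1.12 FPKM of Nlrc5 against 0.379 to 0.453 FPKM.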

How the results depend on the processing

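Each result for a named member was counted once per alternative, the exact rank-sum test not included. Of these counts, 650 kept direction and call, 22 lost a call, 2 gained one and 8 changed sign. Many alternatives leave out only 1 library, so these are not independent checks. Of the numbers of genes called and the medians, 169 stayed close and 14 moved. Requiring a mean of 5 FPKM over all libraries left 11 members among 6244 genes tested, fewer than in the main fit. Members can pass this filter through their mutant libraries, as Gbp2 and Irf1 did, with WT_ND means of 2.03 and 2.44 FPKM. It therefore favours members that are higher in mutant muscle, and the counts under it are no separate support. In DMD_ND against WT_ND, 10 members were called, all higher, where 23.7% of all genes were higher and 46.2% lower (4361 called). In DMD_KD against WT_ND, 7 members were called, all higher, where 20.9% of all genes were higher and 42.4% lower (3950 called). Under TPM scaling the members' medians were 1.60 for the genotype comparison, -0.60 for the diet comparison and 1.01 for DMD_KD against WT_ND, Cmpk2 was 0.038 in DMD_ND against WT_ND, and in DMD_KD against WT_ND Irf7 was 0.50, Ifit2 0.43 and Cmpk2 0.12. In the diet comparison, where 1 gene was called in all, fitting the 2 groups alone called 2 genes and library weights 93 (2 of them members). The exact rank-sum test called 0, and with so few genes without overlap it could not call even those. Leaving out DMD_KD replicate 3, DMD_ND replicate 7 and WT_ND replicate 1 together, an alternative chosen after seeing the data, called 2 genes there and put Ifit2 at 0.091 in DMD_KD against WT_ND. With single libraries left out, the diet comparison called 1 to 7 genes (7 without DMD_KD replicate 9, 2 without DMD_ND replicate 7). In DMD_KD against WT_ND, Irf7 then ran from -0.23 to 0.024, Ifit2 from -0.36 to 0.0050 and Ifit3 from -0.11 to 0.34. The cause of these shifts was not tested. The labels do not say whether replicate numbers pair the libraries, and so few pairs cannot settle it. Of 9 same-numbered pairs, 2 correlated over 0.1, and 2 of 12 libraries lay closest to their own number. The correlations ran from -0.656 (DMD_KD replicate 3 with WT_ND replicate 3) to 0.407 (DMD_KD replicate 9 with WT_ND replicate 9). With the replicate block, 21 members were called higher and 1 lower in DMD_ND against WT_ND (Irf7 lost its call, at 0.54 with adjusted p = 0.0556), where 31.2% of all genes were higher and 33.9% lower. It called 0 members in DMD_KD against DMD_ND. In DMD_KD against WT_ND it called 16 higher and 2 lower, where 26.8% of all genes were higher and 30.2% lower. Low members such as Socs1, Nlrc5 and Ifit3 rest on few reads in wild-type libraries.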
